A study of Mus musculus with 6 samples.

Results

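The genes described here are 10 mouse genes by which tumor-associated macrophages, lipid-associated macrophages and the monocytes they arise from are commonly recognised: Trem2, Spp1, Gpnmb, Lgals3, Cd9, Fabp5, Mrc1, Ccr2, Ly6c2 and Adgre1. They were chosen by name, and they are 10 of the 56884 mouse genes in the deposited count table. All 10 passed the filter of at least 10 counts in total, as did 18018 genes.

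RNA was sequenced from liver tissue of male BALB/c (nu/nu) mice, an athymic strain that lacks T cells but keeps macrophages. By the labels the mice were 6 weeks old when implanted, so they were older when tissue was taken. Cells of QGY-7703, described in the study as a human hepatocellular carcinoma line, had been placed in the liver of every mouse, control mice included. After 1 week the mice received AAV8-siControl (3 libraries, genotype WT by the labels) or AAV8-siAATF (3 libraries, genotype KD), and tissue was collected 3 weeks later. The vector used the TBG promoter, which is active in hepatocytes and is not a macrophage promoter. Nothing in the labels ties a library to a single animal, so p-values measure the spread between these samples.

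Aatf, the gene targeted by the siRNA, was read first. Its counts were 12, 1 and 23 for siControl against 384, 109 and 340 for siAATF. On the TMM scale, which divides by the mouse counts of a library after a correction for composition, these were 9.63, 2.42 and 12.8 CPM (counts scaled to a common library total) against 13.3, 22.0 and 18.9 CPM (log2 fold change 0.93, SE 0.47, adjusted p = 0.152). Libraries labelled siAATF thus did not hold less Aatf RNA on this scale, and siControl and siAATF are used throughout as the labels of the libraries. The libraries also differed in the species of their RNA: of the counts on genes of both species, 0.778 to 1.93% were mouse for siControl, against 97.9 to 99.0% for siAATF. Mouse counts ranged from 213022 to 913584 for siControl and from 11835898 to 42563694 for siAATF, so a floor of 3 counts stands at 3.28 to 14.1 CPM (per mouse count) for siControl and at 0.0705 to 0.253 CPM for siAATF. The label and the human share cannot be told apart in this design.

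Macrophages of a tumor come largely from circulating monocytes, which carry the chemokine receptor CCR2 and the surface protein Ly6C and leave the blood toward the chemokine CCL2. In tissue rich in lipid or dying cells, some of them take up a program led by the lipid receptor TREM2 and marked by osteopontin (Spp1), the glycoprotein GPNMB, galectin-3 (Lgals3), the tetraspanin CD9 and the fatty acid binding protein FABP5. The healthy liver holds its own resident macrophages, the Kupffer cells, and F4/80 (Adgre1) and the mannose receptor CD206 (Mrc1) are read on resident and recruited cells alike. Several of these genes are also used elsewhere: Spp1 by bile duct cells, Mrc1 by the endothelium of liver sinusoids, Cd9 by platelets and many other cells, and Lgals3 and Fabp5 by various epithelia.

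Per mouse count with TMM, 7 of the 10 genes were lower in siAATF and none was higher. The 7 were Trem2, Gpnmb, Spp1, Lgals3, Adgre1, Ccr2 and Ly6c2, with falls of 18.1- to 157-fold, while Cd9, Fabp5 and Mrc1 did not pass the test. The call was an adjusted p under 0.05 by the quasi-likelihood test of edgeR, adjusted after Benjamini and Hochberg over all genes tested, and 14.4% of these genes were called lower and 17.6% higher. The same 7 genes had groups that did not overlap, as had 18.1% of all genes in that direction. The median log2 fold change was -4.85 over the 10 genes and 0.50 over all genes (0.23 without genes at 0 counts in a whole group). With mouse totals alone as the library size and no TMM, 9 genes were called lower, Cd9 and Mrc1 included, and the median over all genes was -1.30. With the counts of both species as the library size, the lower calls of Trem2 and Gpnmb remained, those of the other 5 were lost and Ccr2 turned in sign. Leaving out 1 library moved some of these falls by over 1.5 times: without siAATF replicate 3 the log2 fold change was -7.74 for Trem2, -8.05 for Gpnmb, -6.06 for Lgals3, -5.29 for Ccr2 and -6.59 for Ly6c2, without siControl replicate 1 it was -6.07 for Trem2 and -6.13 for Gpnmb, and without siAATF replicate 1 it was -5.99 for Trem2. Each of the 7 stayed called in all of these fits. Thinning every library to the smallest mouse total gave -7.85 for Trem2, -6.07 for Spp1, -5.96 for Lgals3, -7.40 for Ccr2 and -2.87 for Ly6c2, the last of which then missed the threshold (adjusted p = 0.0565). It cut siAATF totals of 11835898 to 42563694 mouse counts to 213022, so few siAATF counts of these genes were left. The sizes of the thinned falls are therefore limited by the floor and are not read as larger falls. In bulk tissue, fewer macrophages and less of an RNA per macrophage cannot be told apart.

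**Figure D1:**
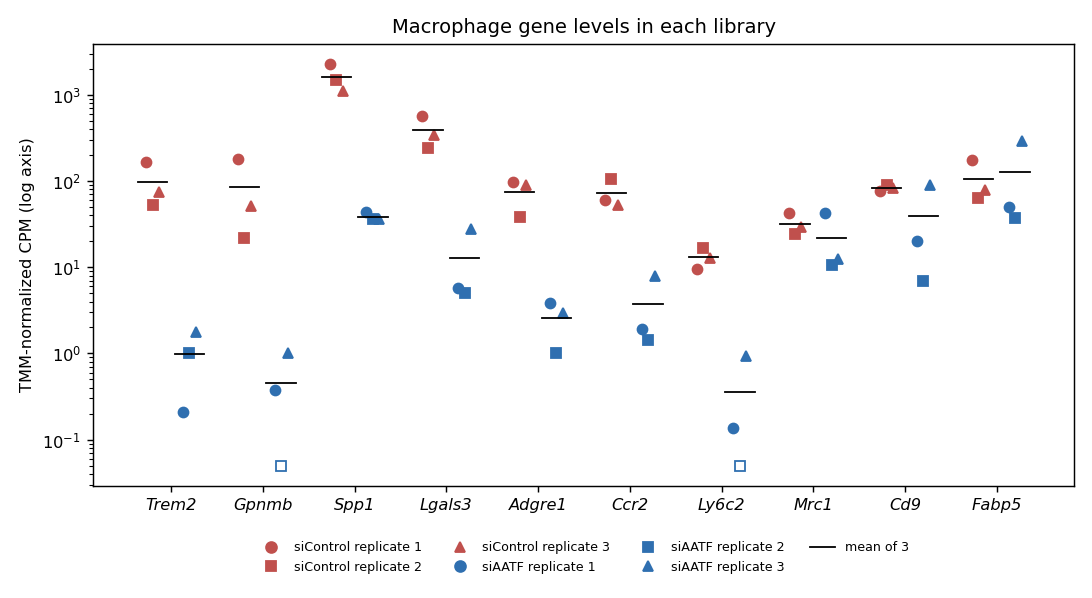
Level of each gene in TMM-normalized CPM (log axis) in the 3 siControl libraries (red) and the 3 siAATF libraries (blue), with the mean of each group as a bar. Open squares at the bottom edge are libraries with 0 counts. The 2 colours are separate for Trem2, Gpnmb, Spp1, Lgals3, Adgre1, Ccr2 and Ly6c2, and they overlap for Mrc1, Cd9 and Fabp5.

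The receptor of the lipid-associated program, Trem2 (ENSMUSG00000023992.15, GRCm39 chr17:48653429-48659301, plus strand), binds lipids and lipoproteins and signals through the adaptor TYROBP. It stood at 165, 53.1 and 74.7 TMM-normalized CPM in siControl replicates 1 to 3 and at 0.207, 1.01 and 1.78 CPM in siAATF replicates 1 to 3. Every siControl library was far above every siAATF library, although the siAATF values rest on only 6, 5 and 32 counts. The mean level was 97.5 CPM ± 59.1 (SD, n = 3) in siControl and 0.997 CPM ± 0.784 (SD, n = 3) in siAATF. Trem2 was 102-fold lower in siAATF (log2 fold change -6.67, SE 0.76, adjusted p = 7.53e-05).

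Gpnmb (ENSMUSG00000029816.11, chr6:49013549-49047863, plus strand) encodes a transmembrane glycoprotein of lysosome-rich phagocytes. Its levels were 182, 21.7 and 51.3 CPM in siControl and 0.380, 0 and 0.998 CPM in siAATF, where the counts were 11, 0 and 18. The siControl libraries differed among themselves by 8.38-fold, with replicate 1 the highest, and still lay above all siAATF libraries. Gpnmb was 157-fold lower in siAATF (log2 fold change -7.29, SE 0.90, adjusted p = 0.000107), the largest fall of the 10 genes on this scale. Its order over Trem2 is not firm: after thinning, Gpnmb came to -7.68 and Trem2 to -7.85.

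Spp1 (ENSMUSG00000029304.15, chr5:104582984-104588916, plus strand) encodes osteopontin, a secreted ligand of integrins and CD44. It stood at 2271, 1469 and 1114 CPM in siControl and at 43.1, 36.3 and 36.6 CPM in siAATF. The siAATF libraries were nearly equal, within 1.19-fold of each other, and the groups were wide apart. Spp1 was 41.8-fold lower (log2 fold change -5.39, SE 0.62, adjusted p = 7.31e-05). It made up 57.9 to 69.3% of the summed counts of the 10 genes in siControl and 7.74 to 36.7% in siAATF. Of the markers of bile duct cells, which also use Spp1, Epcam had 14, 1 and 11 counts in siControl against 45, 0 and 20 in siAATF and was called lower (log2 fold change -2.83, adjusted p = 0.0300), and Krt19, named after its values were seen, had 7, 0 and 2 counts against 72, 12 and 87 (log2 fold change 0.34, adjusted p = 0.792). The part of bile duct cells in the Spp1 level was not tested.

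Proximal promoters of Trem2, Spp1 (the first of 2 in RefSeq) and Gpnmb are shown because Trem2 and Gpnmb had the largest falls and Spp1 the highest siControl level. Each is the 250 bases before the transcription start in RefSeq (GRCm38.p6), read along the gene's strand, at chr17:48346151-48346400 for Trem2, chr5:104434861-104435110 for Spp1 and chr6:49036268-49036517 for Gpnmb. Capitals mark GAGGAA on either strand (TTCCTC as read on the other), the core letters of sites of the myeloid factor PU.1, and TGANTCA, the letters of an AP-1-like site.
Trem2: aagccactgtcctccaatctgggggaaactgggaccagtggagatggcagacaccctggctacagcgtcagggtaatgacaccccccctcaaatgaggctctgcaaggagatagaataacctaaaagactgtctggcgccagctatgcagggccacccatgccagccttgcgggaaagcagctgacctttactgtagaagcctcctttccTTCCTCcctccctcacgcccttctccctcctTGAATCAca
Spp1: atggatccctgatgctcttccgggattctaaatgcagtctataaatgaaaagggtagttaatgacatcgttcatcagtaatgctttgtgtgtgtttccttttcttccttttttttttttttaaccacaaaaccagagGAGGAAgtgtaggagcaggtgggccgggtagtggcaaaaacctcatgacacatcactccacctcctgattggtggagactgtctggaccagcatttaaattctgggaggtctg
Gpnmb: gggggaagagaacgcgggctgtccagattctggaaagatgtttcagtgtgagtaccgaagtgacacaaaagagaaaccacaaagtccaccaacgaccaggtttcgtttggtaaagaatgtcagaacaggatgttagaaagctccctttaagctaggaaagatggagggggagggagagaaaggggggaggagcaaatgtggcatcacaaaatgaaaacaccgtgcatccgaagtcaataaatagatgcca
The Trem2 window held GAGGAA beginning 40 bases before the start and TGANTCA beginning 9 bases before it, with no overlap between them. In the Spp1 window GAGGAA began 113 bases before the start, and the Gpnmb window held neither. RefSeq promoters were matched for 8 of the 10 genes, all except Fabp5 and Adgre1. GAGGAA was present for 4 of these 8 (Trem2, Spp1, Mrc1 and Ly6c2) and in 23.3% of 32851 promoter windows of this length, and TGANTCA for 1 of 8 and in 6.75% of windows. These units differ: a gene counted if any of its windows held the letters, and Spp1 and Ly6c2 had 2 windows each, while the percentages are per window. A match of letters is a description of the window and not a site of binding. Per mouse count with TMM, 3 of the 4 genes with GAGGAA fell, all but Mrc1, and 3 of the 4 without it fell, all but Cd9.

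Lgals3 (ENSMUSG00000050335.18, chr14:47611270-47623617, plus strand) encodes galectin-3, a lectin that binds glycans on cell surfaces and damaged lysosomes. Its levels were 575, 239 and 342 CPM in siControl and 5.80, 5.04 and 27.7 CPM in siAATF. The groups did not overlap, and siAATF replicate 3 was the highest of its group by 5.49-fold over the lowest. Lgals3 was 29.8-fold lower (log2 fold change -4.90, SE 0.74, adjusted p = 0.000375).

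Adgre1 (ENSMUSG00000004730.16, chr17:57665691-57790527, plus strand) encodes F4/80, the classical surface marker of mouse macrophages. It stood at 98.0, 38.7 and 88.7 CPM in siControl and at 3.80, 1.01 and 2.94 CPM in siAATF. No library of one group reached the other, and Adgre1 was 27.8-fold lower (log2 fold change -4.80, SE 0.53, adjusted p = 6.17e-05).

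The monocyte genes Ccr2 and Ly6c2 were lower as well. Ccr2 (ENSMUSG00000049103.15, chr9:123901987-123913594, plus strand), the receptor of CCL2, stood at 59.4, 106 and 52.4 CPM in siControl and at 1.93, 1.41 and 7.93 CPM in siAATF. The fall was 18.1-fold (log2 fold change -4.18, SE 0.63, adjusted p = 0.000358), without overlap of the groups. Ly6c2 (ENSMUSG00000022584.15, chr15:74980010-74983819, minus strand), a Ly6C gene of inflammatory monocytes, stood at 9.63, 16.9 and 12.8 CPM in siControl and at 0.138, 0 and 0.943 CPM in siAATF. It was the shallowest gene of the 10, with 12, 7 and 23 counts in siControl against 4, 0 and 17 in siAATF, and was 30.0-fold lower (log2 fold change -4.91, SE 0.87, adjusted p = 0.00105). Of its 150-base transcript windows, 2.46% are also found in the neighbouring gene Ly6c1, and the corresponding shares were 1.61% for Fabp5 and 0.931% for Spp1, so Ly6c2 is the least certain of these 3 in its assignment. Trem2, Gpnmb, Lgals3, Cd9, Mrc1 and Adgre1 shared no such window. Windows were compared with mouse transcripts only, so human reads placed on these genes were not checked, and most siControl counts are human.

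Cd9, Fabp5 and Mrc1 did not pass the test per mouse count with TMM. Cd9 (ENSMUSG00000030342.9, chr6:125437229-125471754, minus strand), a tetraspanin of the cell membrane, stood at 77.1, 89.4 and 82.0 CPM in siControl and at 20.4, 6.86 and 89.6 CPM in siAATF. Here siAATF replicate 3 reached the siControl libraries while replicates 1 and 2 lay under them, and the groups overlapped (log2 fold change -1.08, SE 0.69, adjusted p = 0.256). Without siAATF replicate 3, Cd9 was called lower (log2 fold change -2.51, adjusted p = 0.000282), and so it was with all 6 libraries under the replicate block (-1.74, adjusted p = 0.000235), with mouse totals alone (-2.90, adjusted p = 0.00204) and after thinning to the smallest mouse total (-1.85, adjusted p = 0.0167).

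Fabp5 (ENSMUSG00000027533.11, chr3:10077608-10081667, plus strand), a carrier of fatty acids inside the cell, stood at 175, 62.8 and 78.1 CPM in siControl and at 50.1, 36.9 and 292 CPM in siAATF. Again siAATF replicate 3 was the highest library, and replicates 1 and 2 were the lowest. The log2 fold change was 0.25 with an SE of 0.71 (adjusted p = 0.817), and without siAATF replicate 3 it was -1.20 (adjusted p = 0.0605). Mrc1 (ENSMUSG00000026712.4, chr2:14234203-14336868, plus strand), an endocytic receptor for mannose-bearing glycoproteins, stood at 42.6, 24.2 and 29.0 CPM in siControl and at 42.3, 10.5 and 12.4 CPM in siAATF. Its siAATF replicate 1 came to the level of the highest siControl library (log2 fold change -0.57, SE 0.52, adjusted p = 0.420). Without that library Mrc1 was called lower (log2 fold change -1.46, adjusted p = 0.0155), as it was with all 6 libraries for mouse totals alone (-2.19, adjusted p = 0.00575) and after thinning (-2.14, adjusted p = 0.0444).

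Among the siAATF libraries, 7 of the 10 genes were highest in replicate 3, and Spp1, Mrc1 and Adgre1 were highest in replicate 1. Neutrophil RNA was also uneven there: S100a9, named after its values were seen, had 42, 9 and 1364 counts in siAATF replicates 1 to 3. The part of neutrophils in the levels of replicate 3 was not tested. Of 8 genes of sinusoidal endothelium, which also uses Mrc1, 4 were called lower and 1, Clec4g, was called higher, and their summed level was 311 to 483 CPM in siControl against 109 to 251 CPM in siAATF. Clec4g itself was at 0 in siControl replicates 2 and 3. The share of Mrc1 RNA that came from endothelium was not tested.

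Levels of different genes were compared per length, as TPM, in which mouse counts are divided by exon length and then scaled to a common total. In siControl, Spp1 led at 3597 TPM ± 1114 (SD, n = 3), followed by Lgals3 at 890 TPM ± 355, Fabp5 at 389 TPM ± 204, Trem2 at 311 TPM ± 172 and Cd9 at 251 TPM ± 27.5. Adgre1, Gpnmb, Ly6c2, Ccr2 and Mrc1 followed, between 85.8 and 21.9 TPM. Only 3 neighbouring pairs in this order had ranges that did not overlap, namely Spp1 over Lgals3, Cd9 over Adgre1 and Ccr2 over Mrc1. In siAATF the order began with Fabp5 at 100.2 TPM ± 108, Cd9 at 25.4 TPM ± 26.8, Spp1 at 19.3 TPM ± 7.51, Lgals3 at 6.33 TPM ± 6.02 and Mrc1 at 3.76 TPM ± 3.99 (SD, n = 3). The other 5 had means of 0.707 TPM or less, with Gpnmb the last at 0.0856 TPM. Only Spp1 and Lgals3 were neighbours without overlap there. Mrc1, the lowest of the 10 in siControl, was thus the fifth in siAATF, and Trem2 moved from the fourth place to the seventh.

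General macrophage markers were also lower per mouse count. Of 18 pan-macrophage genes, a list that holds none of the 10, 16 were called lower and none higher, with a median log2 fold change of -3.86. Laptm5, a lysosomal protein of leukocytes, changed by -4.42 (adjusted p = 4.67e-05), Ctss, the lysosomal protease cathepsin S, by -5.43 (adjusted p = 7.31e-05) and Aif1, the actin-binding protein IBA1, by -2.97 (adjusted p = 0.000122) on the log2 scale. Their summed level was 6963, 3153 and 4500 TMM-normalized CPM in siControl and 279, 223 and 442 CPM in siAATF. Every marker of this list had counts in all 6 libraries, so macrophage RNA was present in both groups. Divided by the gene counts of both species, the same sum was 238, 47.7 and 149 CPM in siControl and 188, 91.4 and 225 CPM in siAATF, and the groups overlapped.

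The 10 genes were therefore also set against these markers, by giving the fit each library's summed pan-macrophage counts as its size. On this scale 4 genes were lower in siAATF, namely Trem2, Gpnmb, Spp1 and Lgals3, and 3 were higher, namely Cd9, Fabp5 and Mrc1. Over all genes, 0.971% were called lower and 83.0% higher, with a median log2 fold change of 4.48 against -0.99 over the 10. A call in the higher direction is therefore common on this scale and a call in the lower direction is rare over all genes. It was not rare among macrophage markers: of the 18 reference markers themselves, 5 were called lower and 2 higher. The 5 were Itgam (4.32-fold lower), Lyz2 (3.35-fold), Ctss (2.91-fold), Fcgr1 (2.49-fold) and Cd68 (2.32-fold), named after their values were seen except for Ctss, and these falls are of the size of those of Spp1 and Lgals3. The reference is itself measured, and its error is not in these p-values. Its marker Cd14, named after its values were seen, had 8.78, 7.24 and 243 counts per 1000 in siAATF replicates 1 to 3. The reference of siAATF replicate 3 thus leans on Cd14, and so do the values per 1000 of that library. With Csf1r alone as the reference, 4 genes were still lower and 3 higher.

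**Figure D2:**
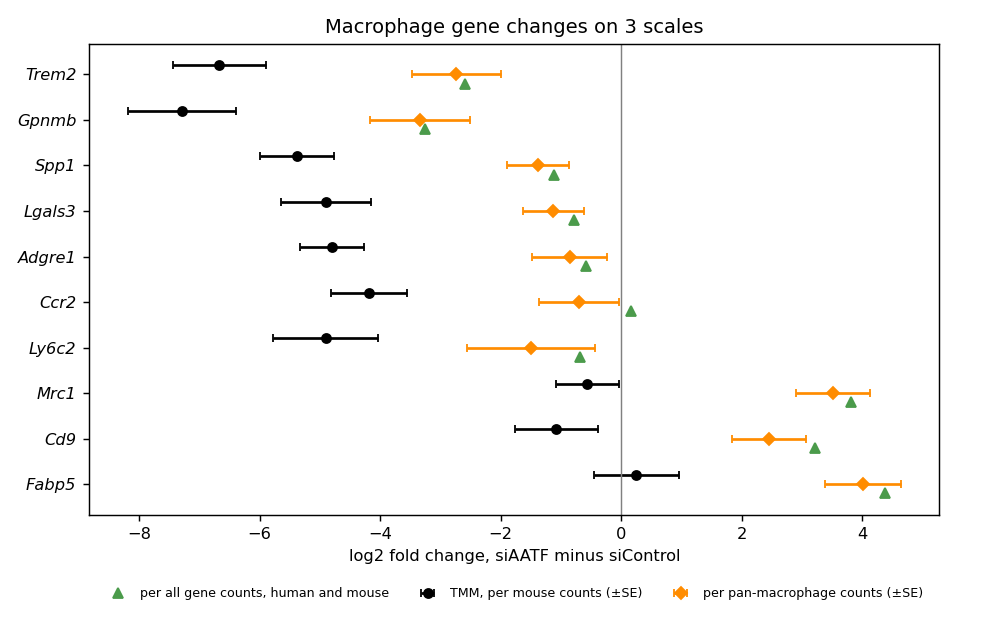
Log2 fold change (siAATF minus siControl) of each gene per mouse count with TMM (black), per pan-macrophage count (orange) and per all gene counts of both species (green), with bars of ±1 SE on the first 2. Trem2, Gpnmb, Spp1, Lgals3, Adgre1 and Ly6c2 are below 0 on all 3 scales, and of these Trem2 and Gpnmb were called lower on all 3. Mrc1 and Cd9 lie to the left of 0 with TMM and to the right of 0 on the other scales, and Fabp5 moves from 0.25 to 4.01 and 4.37.

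Per 1000 pan-macrophage counts, Trem2 had 23.6, 16.9 and 16.6 counts in siControl against 0.742, 4.52 and 4.01 in siAATF. The siControl libraries were close to each other, within 1.42-fold, and all lay above the siAATF libraries. Trem2 was 6.66-fold lower relative to these markers (log2 fold change -2.74, SE 0.74, adjusted p = 0.00200). Gpnmb had 26.2, 6.90 and 11.4 counts per 1000 in siControl and 1.36, 0 and 2.26 in siAATF, again without overlap. It was 10.1-fold lower (log2 fold change -3.34, SE 0.83, adjusted p = 0.000980). Trem2 and Gpnmb kept their calls when any 1 of the 6 libraries was left out, with log2 fold changes of -2.18 (without siAATF replicate 1) to -3.38 (without siAATF replicate 3) for Trem2 and -2.68 (without siControl replicate 1) to -3.86 (without siAATF replicate 3) for Gpnmb.

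Spp1 had 326, 466 and 248 counts per 1000 pan-macrophage counts in siControl against 154, 163 and 82.6 in siAATF. The groups did not overlap and the fall was 2.60-fold (log2 fold change -1.38, SE 0.52, adjusted p = 0.0181), but the call was lost without siControl replicate 2 (adjusted p = 0.0744) and without siAATF replicate 3 (adjusted p = 0.0670). Lgals3 had 82.6, 75.9 and 76.1 counts per 1000 in siControl and 20.8, 22.6 and 62.6 in siAATF, where replicate 3 came near the siControl libraries. It was 2.19-fold lower (log2 fold change -1.13, SE 0.51, adjusted p = 0.0447). The call, but not the direction, was lost without siControl replicate 1, 2 or 3 (log2 fold changes -1.09, -1.15 and -1.15) and without siAATF replicate 1 or 2 (-0.85 and -0.91), with adjusted p-values of up to 0.180, and the value was -1.86 without siAATF replicate 3. It was also lost with no filter on low counts (log2 fold change -1.13, adjusted p = 0.05).

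Adgre1, Ccr2 and Ly6c2 did not pass the test relative to the markers. Adgre1 had 14.1, 12.3 and 19.7 counts per 1000 in siControl and 13.6, 4.52 and 6.65 in siAATF (log2 fold change -0.85, SE 0.62, adjusted p = 0.203). Ccr2 had 8.53, 33.7 and 11.7 counts per 1000 in siControl and 6.92, 6.33 and 17.9 in siAATF (log2 fold change -0.70, SE 0.66, adjusted p = 0.326), and its sign turned to 0.08 without siControl replicate 2. Ly6c2 had 1.38, 5.36 and 2.85 against 0.494, 0 and 2.13 (log2 fold change -1.50, SE 1.06, adjusted p = 0.192), and was called lower only without siAATF replicate 3 (log2 fold change -2.87, adjusted p = 0.0460). The ranges of the groups overlapped for all 3 genes.

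Fabp5 had 25.1, 19.9 and 17.4 counts per 1000 pan-macrophage counts in siControl against 179, 166 and 659 in siAATF. It was 16.1-fold higher relative to the markers (log2 fold change 4.01, SE 0.63, adjusted p = 7.06e-06). Mrc1 had 6.11, 7.66 and 6.45 counts per 1000 in siControl and 152, 47.1 and 28.0 in siAATF, and was 11.4-fold higher (log2 fold change 3.51, SE 0.62, adjusted p = 2.89e-05). Both genes were higher in every siAATF library than in every siControl library. Cd9 had 11.1, 28.4 and 18.2 counts per 1000 in siControl and 72.9, 30.8 and 203 in siAATF, with siAATF replicate 2 just above siControl replicate 2. It was 5.48-fold higher (log2 fold change 2.45, SE 0.62, adjusted p = 0.00112). All 3 changes lie under the median of 4.48 over all genes on this scale, of which 83.0% were called higher. The share of all genes whose groups did not overlap on this scale was not counted. Without siAATF replicate 3 the changes were 1.50 for Cd9 and 3.05 for Fabp5, and without siAATF replicate 1 that of Mrc1 was 2.48, and each stayed called. Hepatocyte RNA, which is not macrophage RNA but shares these libraries, was also higher on this scale. All 8 hepatocyte genes were called higher relative to the markers, as were 83.0% of all genes, and their median was 8.69 against 4.48 over all genes. Per mouse count with TMM, where none of Cd9, Fabp5 and Mrc1 was called higher, all 8 were called higher as well (median log2 fold change 4.58), and their summed level was 2918 to 7314 CPM in siControl against 37920 to 110500 CPM in siAATF. No hepatocyte marker was at 0 in any library. Whether part of the Cd9, Fabp5 and Mrc1 RNA came from cells other than macrophages was not tested.

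**Figure D3:**
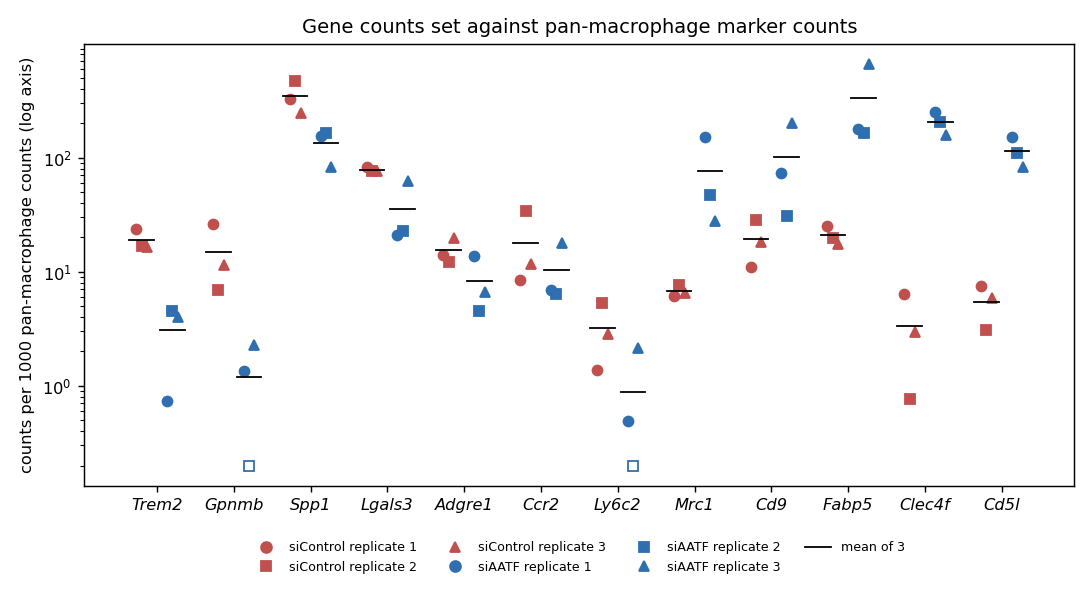
Counts of each gene per 1000 counts of 18 pan-macrophage markers (log axis) in each siControl (red) and siAATF (blue) library, with group means as bars and open squares for 0 counts. Trem2, Gpnmb, Spp1 and Lgals3 lie lower in all siAATF libraries, while Mrc1, Cd9, Fabp5 and the Kupffer cell genes Clec4f and Cd5l, chosen after their values were seen, lie higher. On this scale 83.0% of all genes were called higher.

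Another scale took the counts of both species as the library size. Trem2 was at 5.61, 0.804 and 2.48 CPM of all gene counts in siControl and at 0.140, 0.413 and 0.905 CPM in siAATF, so the highest siAATF library passed the lowest siControl library. Gpnmb was at 6.22, 0.329 and 1.70 CPM against 0.256, 0 and 0.509 CPM, with the same kind of overlap. None of the 10 genes was lower without overlap on this scale, against 0.655% of all genes, while Cd9, Fabp5 and Mrc1 were higher without overlap, as were 83.9% of all genes. In the edgeR fit on this scale, Trem2 (log2 fold change -2.60, SE 0.77, adjusted p = 0.00104) and Gpnmb (log2 fold change -3.26, SE 0.81, adjusted p = 9.25e-05) were called lower, and 0.660% of all genes were. Cd9, Fabp5 and Mrc1 were called higher with log2 fold changes of 3.21, 4.37 and 3.81, and 87.2% of all genes were. Spp1, Lgals3, Adgre1, Ccr2 and Ly6c2 did not pass, with log2 fold changes of -1.12, -0.78, -0.59, 0.17 and -0.68. Thus Trem2 and Gpnmb were called lower on all 3 scales, and the direction of Cd9, Mrc1 and Ccr2 turned with the scale.

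Other genes of the lipid-associated program were mixed. Of 20 such genes outside the 10, 10 were called lower and 1 higher per mouse count, with a median log2 fold change of -1.83. Itgax, the integrin subunit CD11c, changed by -5.88, Lgals1, or galectin-1, by -5.06 and the lysosomal tetraspanin Cd63 by -4.30 on the log2 scale. Lipa, the lysosomal acid lipase, was higher (log2 fold change 1.36, adjusted p = 0.0342). Relative to the pan-macrophage markers 3 of the 20 were lower and 11 higher, with a median of 2.21, which lies under the median of 4.48 over all genes. Of all genes, 0.971% were called lower and 83.0% higher there. The summed level of this list was 5034 to 16900 CPM in siControl against 17110 to 36220 CPM in siAATF, and it is led by Apoe, named after its values were seen and also made by hepatocytes, at 721069, 78151 and 591506 counts in siAATF.

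Of 10 genes tied to TREM2 (its adaptors and kinases, the phosphatase Inpp5d, the membrane protein Ms4a7, and Adam10 and Adam17, proteases that shed the receptor), 9 were called lower per mouse count and none higher, with a median log2 fold change of -3.72. Ms4a7, a membrane protein of monocyte-derived macrophages, changed by -8.24, Inpp5d, or SHIP1, which restrains the pathway, by -4.16 and Pik3cd, a kinase subunit, by -3.55 on the log2 scale. Relative to the pan-macrophage markers 1 of the 10 was lower and 2 were higher, with a median of 0.05. Over all genes on that scale, 0.971% were called lower and 83.0% higher, with a median of 4.48. The 2 higher genes were Adam10 (log2 fold change 2.49) and Adam17 (2.32), named after their values were seen, and both lie under that median. None of the 7 adaptor and signalling genes was called in either direction. The 1 lower gene was Ms4a7, which had 18.1, 12.3 and 22.8 counts per 1000 marker counts in siControl against 0.371, 0.905 and 1.25 in siAATF (log2 fold change -4.40, adjusted p = 3.88e-05). Its groups were far apart, while the adaptor Tyrobp, named after its values were seen, had 29.3, 62.8 and 34.7 against 17.1, 28.1 and 45.6 counts per 1000 (log2 fold change -0.46, adjusted p = 0.403).

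Receptors of osteopontin, the Spp1 product, include CD44 and several integrins. Of 9 such genes, 5 were called lower per mouse count and none higher (median -1.37), and relative to the markers none was lower and 7 were higher (median 2.56), where 83.0% of all genes were called higher with a median of 4.48. Cd44 changed by -4.72, Itgb3, the integrin subunit beta 3, by -3.19 and Itga9, the subunit alpha 9, by -2.14 on the log2 scale. These receptors are used by many cell types besides macrophages.

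Chemokines that draw monocytes, and the growth factors of macrophages, were lower for 11 of 12 genes tested, with none higher and a median log2 fold change of -5.29. Ccl12, a ligand of CCR2, had 69, 19 and 99 counts in siControl against 3, 0 and 2 in siAATF (adjusted p = 4.46e-06). Ccl7, another ligand of CCR2, changed by -7.84 and Ccl4, a chemokine of inflamed tissue, by -7.41 on the log2 scale. Relative to the pan-macrophage markers 5 of the 12 were lower and 3 higher, with a median of -1.31, where 0.971% of all genes were lower and 83.0% higher. Monocyte genes besides Ccr2 and Ly6c2 were lower for 10 of 11 tested, with none higher and a median of -4.97, and relative to the markers for 3 of 11 with 1 higher (median -1.35). Vcan, the proteoglycan versican, changed by -6.11, Cx3cr1, the fractalkine receptor, by -5.15 and Spn, the sialoglycoprotein CD43, by -5.64 on the log2 scale per mouse count.

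Effector genes linked to tumor-associated macrophages were lower for 11 of 15 tested and higher for 1, with a median log2 fold change of -4.02. Nos2, the inducible nitric oxide synthase, had 51, 19 and 108 counts in siControl against 0, 1 and 3 in siAATF (adjusted p = 2.13e-05). Ptgs2, or cyclooxygenase 2, changed by -7.74 and the growth factor gene Tgfb1 by -3.92 on the log2 scale. The 1 gene called higher was Arg1 (log2 fold change 3.61, adjusted p = 0.000709), an arginase that macrophages use and that is also an enzyme of the urea cycle in hepatocytes. Relative to the markers 4 of the 15 were lower and 5 higher, with a median of -0.18, where 0.971% of all genes were lower and 83.0% higher.

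Of 11 genes of resident Kupffer cells, none was called lower and 2 were called higher per mouse count (median log2 fold change 1.13, or 0.87 without Cd163). Over all genes, 14.4% were called lower and 17.6% higher per mouse count, with a median of 0.50, so the number of higher calls is near that share. Relative to the pan-macrophage markers 10 of 11 were called higher, with a median of 5.10, or 4.90 without Cd163. Over all genes on that scale, 83.0% were called higher, with a median of 4.48, or 4.21 without genes at 0 in a whole group. Nr1h3, the oxysterol receptor LXR alpha, which hepatocytes share, changed by 2.72 (adjusted p = 0.00107). Cd163, a scavenger receptor for haemoglobin, had 0 counts in each siControl library and 60, 21 and 106 counts in siAATF (adjusted p = 0.0120), and no fold is given because 0 counts lie under the floor of these libraries. Clec4f, a lectin known from Kupffer cells and named after its values were seen, had 55, 1 and 24 counts in siControl against 2015, 225 and 1246 in siAATF. Per 1000 pan-macrophage counts it stood at 6.34, 0.766 and 2.98 in siControl and at 249, 204 and 156 in siAATF, with no overlap. Its change relative to these markers was 53.4-fold higher (log2 fold change 5.74, adjusted p = 1.58e-07). The size of this fold is uncertain, as the 1 count of siControl replicate 2 lies under the floor of 3 counts. The summed level of the Kupffer list was 121 to 284 CPM in siControl against 316 to 556 CPM in siAATF, and Timd4, named after its values were seen, had 0 counts in siControl replicate 2.

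**Figure D4:**
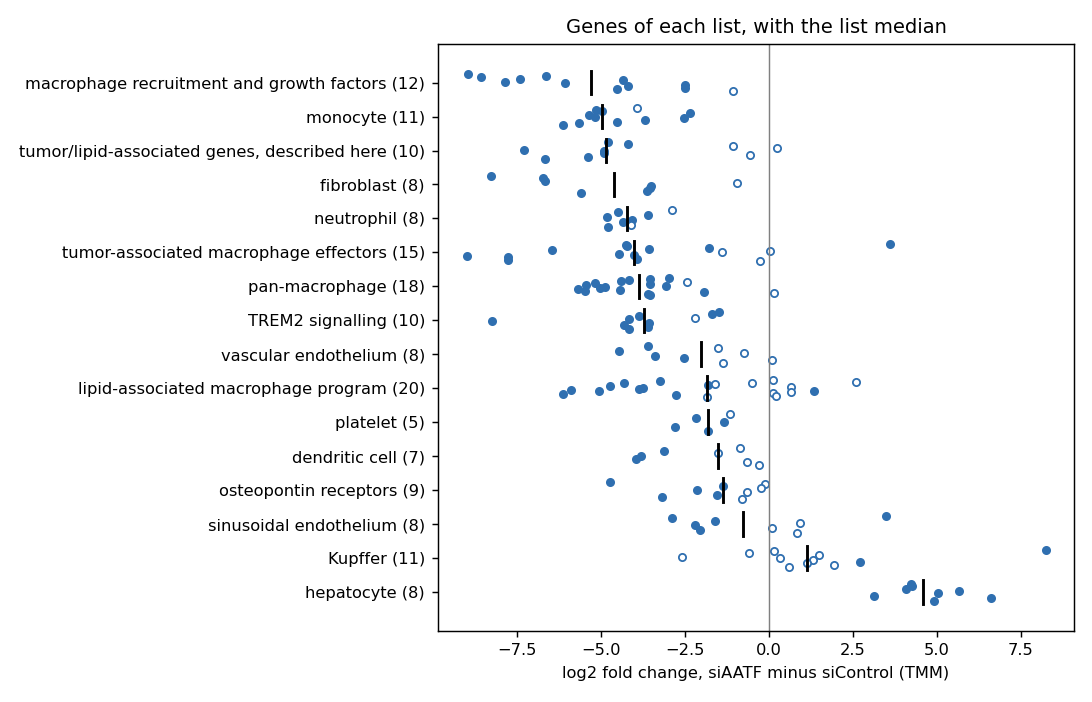
Log2 fold change per mouse count (TMM, siAATF minus siControl) of each gene of the lists described, with the number of genes tested in brackets, filled points for an adjusted p under 0.05 and the list median as a bar. The medians run from -5.29 for the recruitment and growth factors to 4.58 for hepatocyte genes, the 10 genes described here stand at -4.85, and the fitted value of Cd163 at the right of the Kupffer row rests on 0 counts in siControl.

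RNA of other cells moved beside the macrophage genes per mouse count with TMM. Fibroblast genes were called lower for 7 of 8 (median log2 fold change -4.59), with summed levels of 8362 to 12440 CPM in siControl against 344 to 494 CPM in siAATF. Neutrophil genes were called lower for 6 of 8 (median -4.21), with summed levels of 94.7 to 1928 CPM and 2.42 to 140 CPM, and Ly6g, named after its values were seen, was at 0 in 1 siControl and 2 siAATF libraries. Genes of vascular endothelium were called lower for 4 of 8 (median -2.02, 450 to 662 CPM against 64.7 to 199 CPM), of dendritic cells for 3 of 7 (median -1.52, 14.5 to 25.7 CPM against 5.66 to 10.3 CPM) and of platelets for 4 of 5 (median -1.81, 46.6 to 116 CPM against 11.7 to 20.9 CPM). None of these 5 lists held a gene called higher on this scale. Relative to the pan-macrophage markers, 4 fibroblast genes were called lower and 1 higher, 5 genes of vascular endothelium, 3 of dendritic cells and 2 of platelets were called higher with none lower, and no neutrophil gene was called. Over all genes on that scale, 0.971% were called lower and 83.0% higher, so a higher call there is common. The part of these cells in the levels of Spp1, Lgals3, Cd9 and Fabp5 was not tested.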

How the data were processed

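Per the study's methods, reads were trimmed (Cutadapt) and aligned by the authors to a joined human and mouse reference with STAR 2.7.11 (mouse build GRCm39). Reads with more than 1 mapping place, or with a place in each species, were discarded, and featureCounts 2.0.1 counted the others on genes. The deposited values are these raw counts per gene, unfiltered and not normalized. PCR-amplified SMART-Seq cDNA carries no molecular identifiers, so floors cover counting error only, and use of strand in the counting is not given in the sources used here.

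Names came from GENCODE release 39, which matched 56323 of 56884 mouse identifiers. Its transcripts gave the shared windows. edgeR 4.0.16 (R 4.3.3) fitted group alone to 18018 genes with at least 10 counts, with TMM or with summed pan-macrophage counts as library size. A call was an adjusted p under 0.05. SE is the log2 fold change over the root of F. Same-numbered libraries correlated at 0.11, 0.154 and -0.0237 in their deviations, so the numbers were not taken as pairs.

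The 10 genes and the lists were chosen with earlier results of these data known. From each list, the 3 genes with the smallest adjusted p among those called lower, and among those called higher, may be named, and any other is said to have been named after its values were seen. Alternatives used DESeq2 1.42.0 and limma 3.58.1, other scalings, filters and call rules, thinning to the smallest mouse total, and leaving out each library. Human genes, which carry no names in the deposited table, were used as totals only. Human orthologs of the 10 genes were not analysed here. Some results, among them the counts over bile duct markers, are not reported here.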

Additional observations from a re-analysis of the deposited data

How the results depend on the processing

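Of 7 genes called lower per mouse count, DESeq2, RLE and upper-quartile normalization, limma-voom, no filter, filterByExpr and a 4-fold limit kept a count within 1.5 times that number. With mouse totals alone 9 were lower, with Cd9 and Mrc1 added, and after thinning 8, with Cd9 and Mrc1 added and Ly6c2 lost. With the library size of all gene counts, 2 were lower and 3 higher. With at least 10 counts in every library, only 5 of the 10 genes were tested and 2 were lower. Leaving out 1 library gave 7 to 8 lower (Cd9 joined without siAATF replicate 3, Mrc1 without siAATF replicate 1). The replicate block gave 8 lower, adding Cd9, and relative to pan-macrophage markers it gave 4 lower and 3 higher. Relative to those markers, TMM in their place gave 7 lower and 0 higher, at least 10 counts in every library gave 2 lower, no filter gave 3 lower (Lgals3 lost), and leaving out 1 library gave 2 to 4 lower.

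Directions turned as follows. With all gene counts, Cd9 came to 3.21, Mrc1 to 3.81 and Ccr2 to 0.17. Fabp5, uncalled at 0.25, came to -0.07 with upper-quartile normalization, -1.56 with mouse counts alone, -0.27 with the replicate block, -0.33 with limma-voom, -0.18 after thinning, and -1.20 to 0.82 without 1 library. With TMM in place of the markers, Cd9 came to -1.08 and Mrc1 to -0.57. Ccr2 relative to the markers came to -1.36 to 0.08 without 1 library, the latter without siControl replicate 2. Over all alternatives, adjusted p ran from 9.13e-06 to 0.440 for Cd9, 2.36e-07 to 0.999 for Fabp5, 2.34e-07 to 0.814 for Mrc1 and 3.64e-11 to 0.504 for Ly6c2. Over the alternatives that kept a macrophage reference, it ran from 0.0107 to 0.0744 for Spp1, 0.00146 to 0.180 for Lgals3 and 0.0460 to 0.429 for Ly6c2. The median of all genes was 0.50 with TMM, -1.30 with mouse counts alone and 4.66 with all gene counts, and 55.0%, 9.31% and 99.2% of calls were then higher. Apart from these constructions, the cause was not tested. The siControl libraries limit depth: Ly6c2 had 42 counts there in all and went from -4.91 to -2.87 after thinning, losing its call, while Ccr2 went from -4.18 to -7.40. Few siAATF counts of both genes were left after thinning, so no size is read from these values.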
